A study of Homo sapiens with 6 samples.

Results

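The genes described are the 3 ID genes ID1, ID2 and ID3, and the TGF-beta/BMP feedback and target genes SMAD6, SMAD7, SKI, SKIL, BAMBI, TGFBI and PMEPA1. They were chosen by symbol, with earlier results of these data known, and all 10 were found among the 15496 genes of the deposited expression table. Polyadenylated RNA was sequenced from HEK293 cells, a line derived from human embryonic kidney and grown in RPMI medium with serum. Cells treated with B23, a compound that the labels call a quinolinol, made up 3 libraries, and cells given the solvent DMSO made up the other 3. These groups follow the treatment field and the titles of the labels, while the protocol text of all 6 libraries speaks of B23 only. The sources used here give neither the dose, nor the treatment time, nor whether the triplicates were separate cultures. The p-values therefore set the difference between the groups only against the spread of these libraries, partly shared across genes by the fit. That spread may be technical.

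Ligands of the TGF-beta family bind pairs of serine/threonine kinase receptors, which phosphorylate receptor-activated SMAD proteins. SMAD2 and SMAD3 carry signals of TGF-beta and activin, while SMAD1, SMAD5 and SMAD9 carry those of the bone morphogenetic proteins (BMPs), and both groups enter the nucleus with the common partner SMAD4. Several target genes encode inhibitors of the pathway, and the ID genes, classical BMP targets, encode helix-loop-helix proteins without a DNA-binding region, which hold E proteins away from DNA.

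Read totals of the listed genes were 40950318 to 47444126 per library. Each library was close to its replicates, with Pearson's r of 0.998 to 0.999 on log2 values across genes, which are not independent replicates. All 8 markers set for HEK293 were in the table, with mean levels of 1.38 to 706 CPM in B23 and 5.85 to 382 CPM in DMSO (CPM is the deposited unit, a read count scaled to library size). They did not share a direction: by mean, VIM and EYA1 were higher in B23, while NEFL, NEFM, PAX2, LHX1, SALL1 and CDH2 were lower. Of markers of other cell types, 2 of 6 for fibroblasts, 1 of 5 for immune cells, 1 of 4 for endothelium and 0 of 3 for hepatocytes were listed. Most of the transcriptome differed between the groups: 88.6% of 14792 tested genes had a Benjamini-Hochberg adjusted p under 0.05 in limma, 39.6% higher and 49.0% lower in B23. Of the called genes 55.3% were lower in B23, and 67.5% were lower when each library's listed genes were set to 1 common sum (listed-gene total scaling).

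The promoter windows of the 7 genes whose mean level differed by 1.86-fold or more are shown, since they are the regulatory sequence nearest to the transcripts that moved: 5 of these genes fell, and TGFBI and PMEPA1 rose. Each is a RefSeq window on GRCh38.p14, 250 bases before to 50 after a transcript start, written 5′ to 3′ on the strand of the gene. Capitals mark matches, on either strand, to CAGAC (the SMAD box with its flank), GGCGCC (an element bound by BMP SMADs), CACGTG (an E-box), TGACG (part of a cAMP response element), TATAAA (a core promoter element) and GTCTAGAC (the palindromic SMAD box), and adjoining or overlapping matches run together. The last motif was added after the windows had been read. The windows are chr20:31605039-31605338 (plus strand) for ID1, chr2:8681806-8682105 (plus) for ID2, chr1:23559452-23559751 (minus) for ID3, chr15:66701986-66702285 (plus) for SMAD6, chr10:28677271-28677570 (plus) for BAMBI, chr5:136028738-136029037 (plus) for TGFBI and chr20:57709966-57710265 (minus) for PMEPA1, whose other 3 windows are not printed. The printed PMEPA1 window holds the most matches, while each of the other 3 holds 1. Which of these starts the cells use was not examined.
ID1: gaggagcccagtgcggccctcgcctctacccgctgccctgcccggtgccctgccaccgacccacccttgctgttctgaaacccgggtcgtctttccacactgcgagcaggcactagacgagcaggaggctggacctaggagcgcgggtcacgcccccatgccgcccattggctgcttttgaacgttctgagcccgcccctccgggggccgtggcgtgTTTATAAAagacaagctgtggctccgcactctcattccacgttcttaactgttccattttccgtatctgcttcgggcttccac
ID2: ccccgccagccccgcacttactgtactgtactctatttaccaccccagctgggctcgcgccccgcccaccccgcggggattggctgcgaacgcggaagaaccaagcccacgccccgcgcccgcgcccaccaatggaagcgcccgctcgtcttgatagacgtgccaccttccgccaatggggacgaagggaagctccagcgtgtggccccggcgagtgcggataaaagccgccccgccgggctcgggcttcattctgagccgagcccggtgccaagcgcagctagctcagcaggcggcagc
ID3: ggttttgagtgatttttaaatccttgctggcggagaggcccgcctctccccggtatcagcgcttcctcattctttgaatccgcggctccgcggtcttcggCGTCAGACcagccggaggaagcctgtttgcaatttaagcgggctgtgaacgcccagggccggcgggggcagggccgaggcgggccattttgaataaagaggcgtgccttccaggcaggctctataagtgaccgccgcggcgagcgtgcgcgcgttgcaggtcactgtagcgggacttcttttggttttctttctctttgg
SMAD6: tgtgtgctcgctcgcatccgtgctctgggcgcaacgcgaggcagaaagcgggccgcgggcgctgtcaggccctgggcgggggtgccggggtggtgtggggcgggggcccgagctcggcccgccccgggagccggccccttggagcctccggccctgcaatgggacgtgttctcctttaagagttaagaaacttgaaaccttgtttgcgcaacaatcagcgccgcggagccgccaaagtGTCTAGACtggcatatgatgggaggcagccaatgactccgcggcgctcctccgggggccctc
BAMBI: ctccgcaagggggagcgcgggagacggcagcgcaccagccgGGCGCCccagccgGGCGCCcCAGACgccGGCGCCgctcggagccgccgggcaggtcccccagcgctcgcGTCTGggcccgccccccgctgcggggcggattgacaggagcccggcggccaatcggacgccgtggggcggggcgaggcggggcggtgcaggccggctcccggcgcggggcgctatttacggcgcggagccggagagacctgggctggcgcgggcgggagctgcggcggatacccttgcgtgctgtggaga
TGFBI: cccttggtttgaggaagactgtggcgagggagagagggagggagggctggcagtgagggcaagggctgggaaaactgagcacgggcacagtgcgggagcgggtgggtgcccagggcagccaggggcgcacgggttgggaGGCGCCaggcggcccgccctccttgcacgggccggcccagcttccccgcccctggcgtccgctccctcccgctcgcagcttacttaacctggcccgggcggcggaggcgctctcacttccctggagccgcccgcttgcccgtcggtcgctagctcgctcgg
PMEPA1: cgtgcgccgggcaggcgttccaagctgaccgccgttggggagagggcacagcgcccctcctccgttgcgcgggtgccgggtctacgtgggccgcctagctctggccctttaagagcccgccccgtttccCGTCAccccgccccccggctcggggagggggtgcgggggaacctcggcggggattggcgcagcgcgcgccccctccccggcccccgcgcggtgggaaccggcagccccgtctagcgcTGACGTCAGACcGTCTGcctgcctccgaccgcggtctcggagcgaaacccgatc

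Windows were present for 9 of the 10 genes, 14 windows in all, with SKI the gene named only. CAGAC was found in 8 of the 14 windows, against 45.3% of 35116 RefSeq windows of the same length. GGCGCC was found in 4 of the 14, namely those of SKIL, BAMBI, TGFBI and 1 of the windows of PMEPA1 that is not printed, against 19.2% of all windows. BAMBI held GGCGCC at 3 positions, and CAGAC or its reverse complement at 2. The palindromic SMAD box was found in the SMAD6 window, its first base 12 bases upstream of the transcript start, and in 0.202% of all windows. Because this motif was added after the windows had been read, that share does not measure how unusual the match is. TGACG or its reverse complement was found in 3 of the 14 windows, against 24.6% of all windows, and CACGTG in 0 of the 14, against 7.26%. TATAAA was found in the ID1 window and in 1 SMAD7 window, 2 of the 14, against 11.5%. In ID3 the CGTCA and CAGAC matches overlap. The ID2 window held no match to these 6 motifs. The matches are letters in these windows and say nothing of binding.

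All 3 ID genes were lower in B23, and ID2 fell the most of them. ID2, on chromosome 2 from 8678845 to 8684453 in GRCh38, had 51.4, 47.5 and 48.3 CPM in the B23 libraries, against 303, 302 and 294 CPM in the DMSO libraries. The B23 values lay far below the DMSO values, and each group was narrow. The mean was 49.1 ± 2.07 CPM in B23 and 299.7 ± 4.65 CPM in DMSO (SD, n = 3 each), 6.11-fold lower, and the difference of log2(CPM + 0.5) was -2.599 (SE 0.035, adjusted p = 4.31e-26 in limma). Of all tested genes, 0.656% had a difference below that of ID2.

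ID3, on chromosome 1 from 23557918 to 23559794, had 79.0, 69.4 and 80.8 CPM in B23, against 192, 179 and 181 CPM in DMSO. Its groups did not overlap, and B23 replicate 2 was the lowest library. The mean was 2.41-fold lower in B23, and its log2 difference was -1.26 (SE 0.049, limma adjusted p = 7.29e-14). ID1, on chromosome 20 from 31605283 to 31606515, had 26.2, 21.98 and 25.2 CPM in B23, against 43.4, 47.3 and 45.5 CPM in DMSO. It was 1.86-fold lower, the smallest fall of the 3, and its log2 difference was -0.88 (SE 0.054, limma adjusted p = 2.37e-12); its groups did not overlap either. B23 replicate 2 was the lowest library for ID1 and ID2 as well. Over the 19 alternative settings the log2 difference ran from -2.92 to -2.49 for ID2, from -1.65 to -1.16 for ID3 and from -1.13 to -0.77 for ID1. Some of these settings, such as the filters, cannot move the difference. In bulk RNA, fewer cells expressing a gene and less RNA per cell cannot be told apart.

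**Figure D1:**
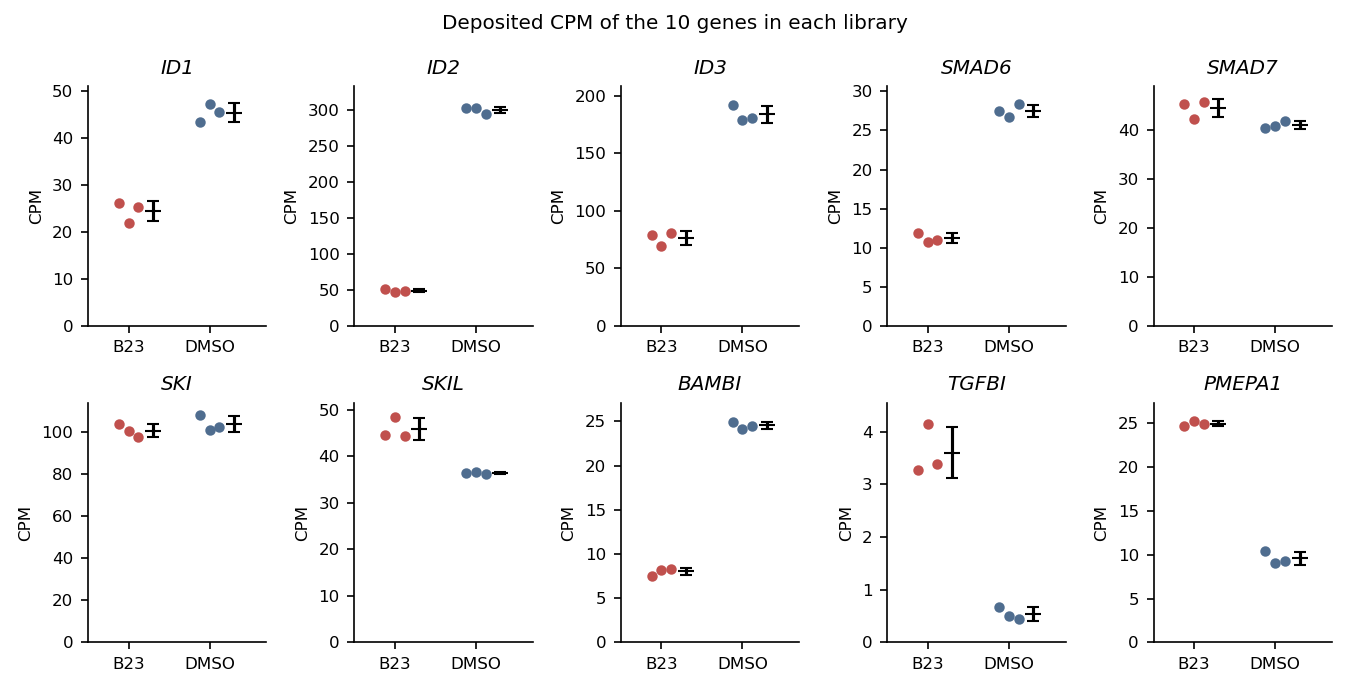
Deposited CPM of each of the 10 genes (vertical axes from 0, 1 panel per gene) in the 3 B23 libraries and the 3 DMSO libraries; points are libraries, and bars show mean and SD of 3 libraries. ID1, ID2, ID3, SMAD6 and BAMBI lie lower in B23, PMEPA1, TGFBI and SKIL lie higher, SMAD7 is slightly higher (lower with listed-gene total scaling) and the values of SKI overlap.

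The makeup of the ID family differed as well. Levels per length, as CPM per kb of merged exons, summed over ID1, ID2 and ID3 to 88.5, 78.0 and 87.4 in the B23 libraries, against 279, 275 and 271 in the DMSO libraries. ID2 made up 26.4% ± 1.26 of this sum in B23 and 49.4% ± 0.382 in DMSO (SD, n = 3 each). ID3 made up 50.2% ± 1.09 in B23 and 37.2% ± 1.054 in DMSO, and ID1 made up 23.4% ± 0.552 in B23 and 13.4% ± 0.715 in DMSO. The groups did not overlap in any of the 3 shares, which were not tested further because 3 libraries against 3 can reach no exact p under 0.10. With the length of the longest principal transcript in place of merged exons, ID2 made up 21.96% in B23 and 43.2% in DMSO, and ID3 made up 55.6% in B23 and 43.3% in DMSO.

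**Figure D2:**
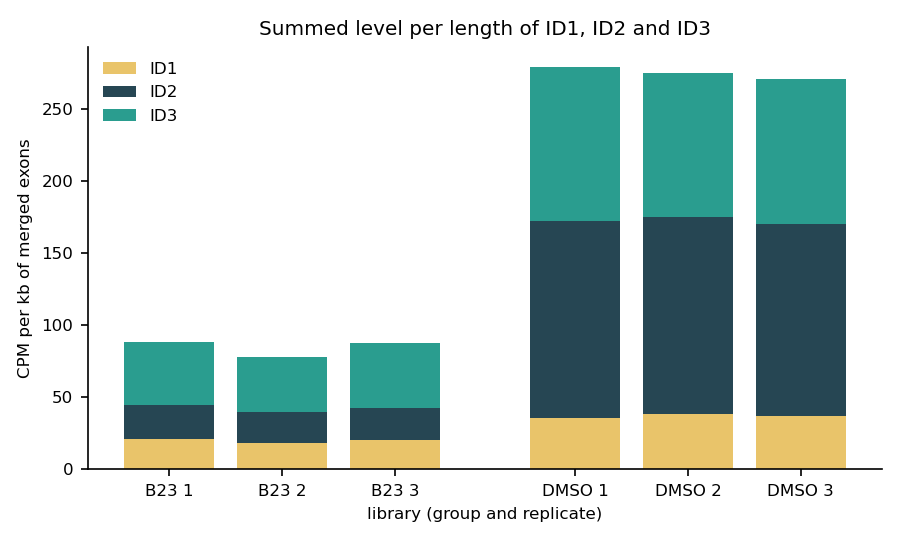
Summed level per length of ID1, ID2 and ID3 (CPM per kb of merged exons, vertical axis) in each B23 and DMSO library, stacked by gene. The stack reaches 78.0 to 88.5 in B23 and 271 to 279 in DMSO, and ID2 is the largest segment in DMSO and ID3 in B23.

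The fourth ID gene and the E proteins, with which ID proteins pair, moved in both directions. ID4 had 86.3, 79.2 and 83.4 CPM in B23, against 216, 230 and 223 CPM in DMSO. It was 2.69-fold lower (log2 difference -1.42, SE 0.036, adjusted p = 4.59e-21 in limma). Each of the 4 ID genes was thus lower in every B23 library than in any DMSO library. Such separation was common, since the groups did not overlap in 88.9% of all tested genes and 49.0% were called lower. Of the 3 E protein genes, TCF12 rose 1.41-fold to 63.0 ± 1.08 CPM in B23, against 44.7 ± 0.440 CPM in DMSO. TCF4 fell 1.51-fold to 23.4 ± 0.371 CPM in B23, against 35.3 ± 0.602 CPM in DMSO. TCF3, which lies outside the rule for named genes, averaged 124 CPM in B23 and 101 CPM in DMSO.

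The inhibitory SMADs, which block receptor-activated SMADs and recruit ubiquitin ligases to receptors, did not move together. SMAD6, an inhibitor mainly of BMP signals on chromosome 15 from 66702228 to 66782848, had 11.9, 10.7 and 11.03 CPM in B23, against 27.5, 26.7 and 28.3 CPM in DMSO. It fell 2.45-fold in B23, with groups far apart (log2 difference -1.26, SE 0.052, adjusted p = 5.72e-17 in limma). SMAD7, which inhibits both branches and lies on chromosome 18 from 48919853 to 48952052, had 45.5, 42.4 and 45.8 CPM in B23, against 40.5, 40.9 and 41.9 CPM in DMSO. The lowest B23 value was just above the highest DMSO value, and the log2 difference was 0.12 (SE 0.040, limma adjusted p = 0.0108). This call was lost without B23 replicate 1 (adjusted p = 0.0526) or B23 replicate 3 (adjusted p = 0.0621), and with listed-gene total scaling the difference was -0.13 (adjusted p = 0.00318). Per kb of merged exons, the level of SMAD7 over that of SMAD6 was 6.49, 6.75 and 7.07 in B23, against 2.51, 2.602 and 2.52 in DMSO. The size of this ratio depends on the length used. Per kb of the longest principal transcript, SMAD7 and SMAD6 averaged 10.06 and 2.93 CPM in B23, and 9.28 and 7.17 CPM in DMSO.

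BAMBI, a pseudoreceptor that resembles type I receptors but lacks the kinase, was lower in B23. It lies on chromosome 10 from 28677342 to 28682939 and had 7.52, 8.24 and 8.30 CPM in B23, against 24.97, 24.2 and 24.5 CPM in DMSO. The fall was 3.06-fold, with no overlap (log2 difference -1.56, SE 0.055, adjusted p = 2.25e-18 in limma). PMEPA1, a TGF-beta target whose membrane protein binds SMAD2 and SMAD3 and limits their access to the receptor, went the other way. On chromosome 20 from 57648392 to 57711536, it had 24.7, 25.2 and 24.9 CPM in B23, against 10.4, 9.06 and 9.21 CPM in DMSO. It rose 2.602-fold (log2 difference 1.34, SE 0.056, adjusted p = 7.48e-17 in limma), and the B23 libraries were nearly equal.

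SKI and SKIL (SnoN), related nuclear corepressors that bind SMAD complexes, differed little between the groups. SKIL, on chromosome 3 from 170357678 to 170396835, had 44.4, 48.4 and 44.3 CPM in B23, against 36.4, 36.5 and 36.2 CPM in DMSO. The DMSO libraries were nearly equal, and SKIL rose 1.26-fold (log2 difference 0.32, SE 0.042, adjusted p = 1.04e-07 in limma), a call lost under listed-gene total scaling (0.074, adjusted p = 0.102). SKI, on chromosome 1 from 2228695 to 2310119, had 104, 101 and 97.6 CPM in B23, against 108, 101 and 102 CPM in DMSO. Its values overlapped and it was not called (log2 difference -0.043, SE 0.036, adjusted p = 0.261 in limma), though it was called lower under 2 other scalings.

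TGFBI, a secreted matrix protein gene named for its induction by TGF-beta, was the least abundant of the 10. It lies on chromosome 5 from 136028895 to 136063818 and had 3.27, 4.15 and 3.39 CPM in B23, against 0.681, 0.493 and 0.445 CPM in DMSO. These values rest on 166, 191 and 169 reads in B23 and on 43, 30 and 28 reads in DMSO. The mean was 6.68-fold higher in B23, the largest rise of the 10 by ratio, and its log2 difference was 1.98 (SE 0.112, limma adjusted p = 2.30e-14). Because the gene is low, this difference was 1.14 with a pseudocount of 2 and 2.84 in DESeq2 on recovered reads.

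Of the 10 genes, 5 fell and 4 rose (2 rose with listed-gene total scaling), beside 49.0% of all tested genes lower and 39.6% higher. All 10 passed the filter of a mean of at least 1 CPM. However, TGFBI, with 0.540 CPM in DMSO, passed it only through its level in B23 and so had to differ. Of the other 9 genes, 3 rose and 5 fell, while the shares of all tested genes were taken without such an exclusion. Over all 10 genes, TGFBI included, the groups did not overlap in 9, beside 88.9% of all tested genes. Of all tested genes 88.6% were called, so both shares are close to those of the whole table. By size, 4 of the 10 had a log2 difference of -1 or below, against 15.8% of tested genes, and 2 had one of at least 1 (1 without TGFBI), against 9.65%. The 10 were chosen with earlier results of these data known, so these shares do not measure how unusual the genes are. The median over the 10 was -0.46, without TGFBI it was -0.88, and that of all tested genes was -0.10. No listed gene overlaps any of the 10 in GENCODE release 29.

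**Figure D3:**
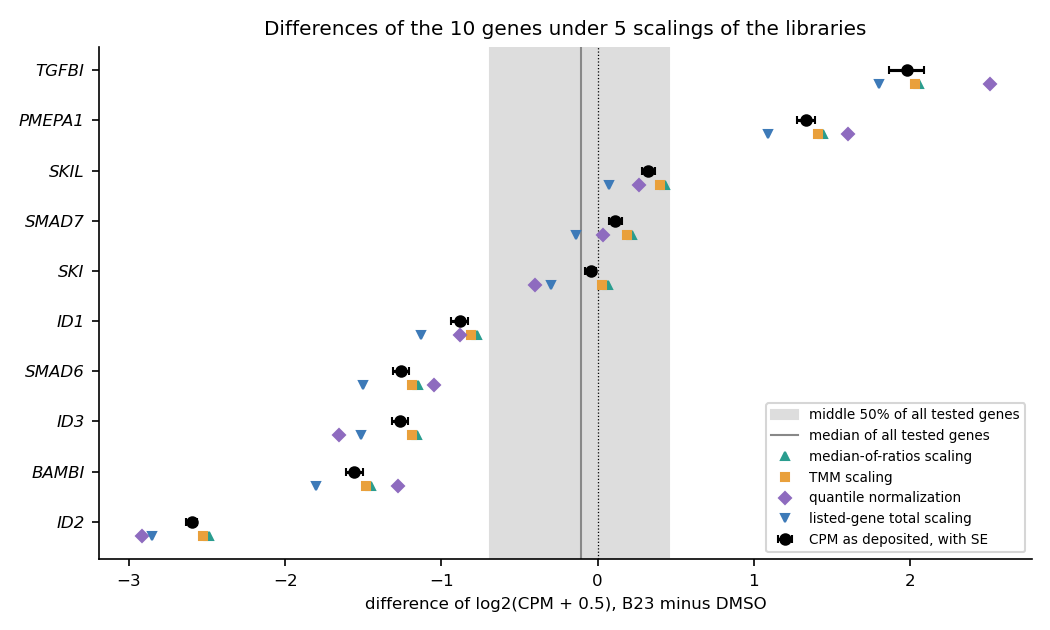
Difference of log2(CPM + 0.5), B23 minus DMSO (horizontal axis), for the 10 genes; black points with SE are CPM as deposited, coloured marks are 4 other scalings, the grey band is the middle 50% of all tested genes as deposited (-0.69 to 0.46) and the grey line their median. ID2, BAMBI, ID3, SMAD6 and ID1 lie left of the band under all 5 scalings, PMEPA1 and TGFBI lie right of it, and SKI, SMAD7 and SKIL lie inside it.

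Ordered by level per kb of merged exons, the 10 genes in B23 ran ID3, ID2, ID1, SKI, SMAD7, SKIL, PMEPA1, BAMBI, SMAD6 and TGFBI, at mean levels from 42.5 to 0.461. In DMSO the order was ID2, ID3, ID1, SKI, BAMBI, SMAD7, SKIL, SMAD6, PMEPA1 and TGFBI, from 135.9 to 0.0691. No neighbours in these orders overlapped in their 3 libraries. With the length of the longest principal transcript, ID1 and ID2 overlapped in B23 (24.6 ± 2.20 and 24.05 ± 1.014 CPM per kb), ID3 and ID2 overlapped in DMSO (147 ± 5.84 and 147 ± 2.28 CPM per kb), and SMAD6 stood above SKIL in DMSO.

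The 10 genes differ in structure, and across coding genes the difference moved with exon number. Coding genes whose principal transcript has 2 exons had a median log2 difference of -0.88 (n = 619), those with 3 exons -0.55 (n = 789), those with 4 exons -0.34 (n = 982) and those with 13 or more 0.14 (n = 4396). ID1 has 2 exons, and its difference of -0.88 lay at the median of that class. ID3 and BAMBI have 3 exons, and 19.8% and 13.1% of genes with 3 exons lay below them. SMAD6, SMAD7 and PMEPA1 have 4 exons, and 12.1%, 72.5% and 95.8% of genes with 4 exons lay below them. ID2 has 3 principal transcripts with 2 to 5 exons, and 0.299% of genes with 5 exons lay below it. TGFBI, with 17 exons, lay above most genes of its class, of which 97.7% lay below it. The part of exon number in these differences was not tested.

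**Figure D4:**
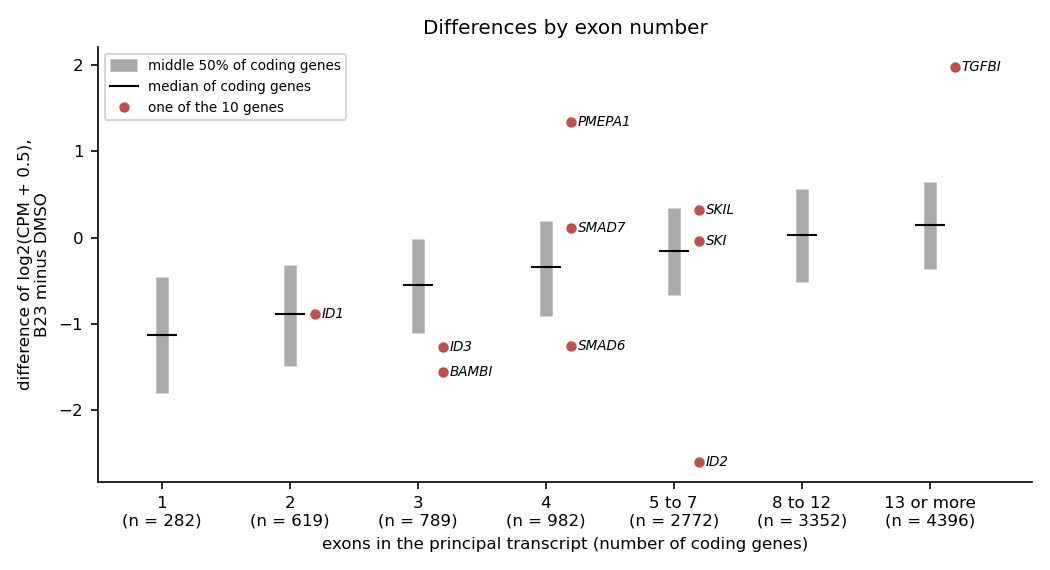
Difference of log2(CPM + 0.5), B23 minus DMSO (vertical axis), by exon number of the principal transcript of coding genes (horizontal axis, number of genes below); grey bars are the middle 50%, black marks the medians and red points the 10 genes. Class medians run from -1.13 at 1 exon to 0.14 at 13 or more, ID1 lies at the median of its class, and ID2, ID3, BAMBI, SMAD6, PMEPA1 and TGFBI lie outside the middle 50% of theirs.

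The nearest listed genes on the chromosome, taken by position, did not share the direction of the ID genes throughout. HM13, 27.4 kb before ID1, had a log2 difference of 0.55, while BCL2L1, 57.9 kb after it, had one of -1.77. KIDINS220, 36.6 kb after ID2, had a log2 difference of 0.88, and E2F2, 26.7 kb from ID3, had one of 1.71. WAC, 54.2 kb before BAMBI, had a log2 difference of 1.505. The next listed gene after SMAD6 is SMAD3, at a distance of 281 kb, and the next after TGFBI is SMAD5, at a distance of 69.03 kb.

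The rest of the pathway was read from 9 lists with 137 genes, of which 122 were in the table. Among ligands, 12 of 14 tested genes fell and 2 rose, with a median log2 difference of -0.96. GDF6, GDF9 and INHBB passed the filter only through their level in DMSO; without them 9 fell and 2 rose, with a median of -0.37, and with a mean of at least 5 CPM the median was -0.58 (n = 10). BMP4, a ligand of the BMP branch, had 1.10, 1.04 and 1.04 CPM in B23, against 9.72, 9.98 and 9.07 CPM in DMSO. It fell 9.02-fold (log2 difference -2.69, SE 0.082, adjusted p = 1.14e-19 in limma), the largest fall by ratio among the named ligands. TGFB2 fell 2.80-fold to 2.64 ± 0.165 CPM in B23, against 7.39 ± 0.138 CPM in DMSO, and it overlaps TGFB2-OT1. GDF11 fell 2.71-fold to 14.7 ± 0.175 CPM in B23, against 39.7 ± 1.43 CPM in DMSO, and it overlaps SARNP and AC023055.1, so part of its reads is uncertain. Of 17 extracellular regulators 13 fell and 4 rose (median -0.52), and GREM1 and SOSTDC1 among those that fell passed the filter only through DMSO. Without them 11 fell and 4 rose, with a median of -0.45, and with a mean of at least 5 CPM the median was -0.36 (n = 12). TLL1, a protease of the tolloid family that can cleave the BMP antagonist chordin, fell 4.09-fold to 5.02 ± 0.568 CPM in B23, against 20.6 ± 0.690 CPM in DMSO. FSTL3, which binds activin, rose 3.43-fold to 13.6 ± 0.720 CPM in B23, against 3.97 ± 0.276 CPM in DMSO, and LTBP2, a latent TGF-beta binding protein family gene, fell 2.66-fold.

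Of 15 receptor and coreceptor genes 8 fell, 4 rose and 3 were not called (median -0.18). Among those that fell, AMHR2 passed the filter only through DMSO, and without it the median was -0.12. RGMA and RGMB, BMP coreceptors, fell 2.23-fold and 1.57-fold, and the type I BMP receptor gene BMPR1A fell 1.54-fold to 25.2 ± 1.07 CPM in B23, against 38.9 ± 0.927 CPM in DMSO. Of the 6 other SMADs 3 rose, 2 fell and 1 was not called (median 0.16). SMAD1, a BMP-branch SMAD, had 10.1, 10.8 and 10.5 CPM in B23, against 22.7, 22.7 and 22.7 CPM in DMSO, a 2.17-fold fall (log2 difference -1.08, SE 0.051, adjusted p = 7.44e-16 in limma). SMAD4, the common SMAD, rose 1.81-fold to 82.2 ± 1.59 CPM in B23, against 45.3 ± 0.733 CPM in DMSO, and it overlaps AC091551.1. SMAD9 rose 1.32-fold. The median of the SMADs turned to -0.091 with listed-gene total scaling and to -0.046 with quantile normalization.

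Among 11 SMAD cofactors 5 rose, 4 fell and 2 were not called (median 0.0077, -0.24 with listed-gene total scaling and 0.23 with a mean of at least 5 CPM). The corepressor gene TGIF1 fell 1.90-fold, while the coactivator gene CREBBP rose 1.68-fold and TGIF2, which overlaps TGIF2-RAB5IF, rose 1.60-fold. Of 20 genes of SMAD turnover and anchoring 13 rose, 5 fell and 2 were not called (median 0.34, 0.086 with listed-gene total scaling and 0.19 with quantile normalization). PPP1R15A, a phosphatase subunit also known from the stress response, had 481, 473 and 484 CPM in B23, against 95.9, 93.8 and 95.4 CPM in DMSO. It rose 5.04-fold (log2 difference 2.33, SE 0.032, adjusted p = 5.64e-26 in limma). USP15, a deubiquitinase that acts on receptor-activated SMADs, rose 2.95-fold to 131 ± 1.80 CPM in B23, against 44.6 ± 0.754 CPM in DMSO. LEMD3, an inner nuclear membrane protein gene whose product binds SMADs and restrains them, rose 2.25-fold.

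Of 14 other BMP/SMAD1 targets 12 fell and 2 rose (median -0.95). DLX3, DLX5 and RGS4 passed the filter only through DMSO; without them 9 fell and 2 rose, with a median of -0.84, and with a mean of at least 5 CPM the median was -0.40 (n = 9). HEY1, a helix-loop-helix repressor gene also driven by Notch, had 35.2, 34.3 and 37.8 CPM in B23, against 196, 187 and 176 CPM in DMSO. It fell 5.21-fold (log2 difference -2.36, SE 0.042, adjusted p = 2.66e-23 in limma). The homeobox gene MSX2 fell 3.13-fold to 33.6 ± 1.40 CPM in B23, against 105.2 ± 2.65 CPM in DMSO. ID4, SMAD9 and NOG, of other lists, are on this list too. Of 20 other TGF-beta/SMAD3 targets, which again hold LTBP2, 10 rose, 7 fell and 3 were not called (median 0.057, -0.19 with listed-gene total scaling and 0.14 with a mean of at least 5 CPM). BHLHE40, a helix-loop-helix repressor gene, rose 3.35-fold to 164 ± 3.43 CPM in B23, against 49.1 ± 1.99 CPM in DMSO. SNAI2, a zinc finger repressor gene of epithelial-mesenchymal transition, fell 2.97-fold to 7.44 ± 0.648 CPM in B23, against 22.1 ± 1.03 CPM in DMSO. These counts stand beside 39.6% of all tested genes higher and 49.0% lower, shares taken without leaving out genes that passed the filter through 1 group. The lists were given no test. The median of all tested genes, to be set beside the list medians, was -0.10 as deposited and -0.34 with listed-gene total scaling. It was -0.027 with quantile normalization and -0.006 with a mean of at least 5 CPM.

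**Figure D5:**
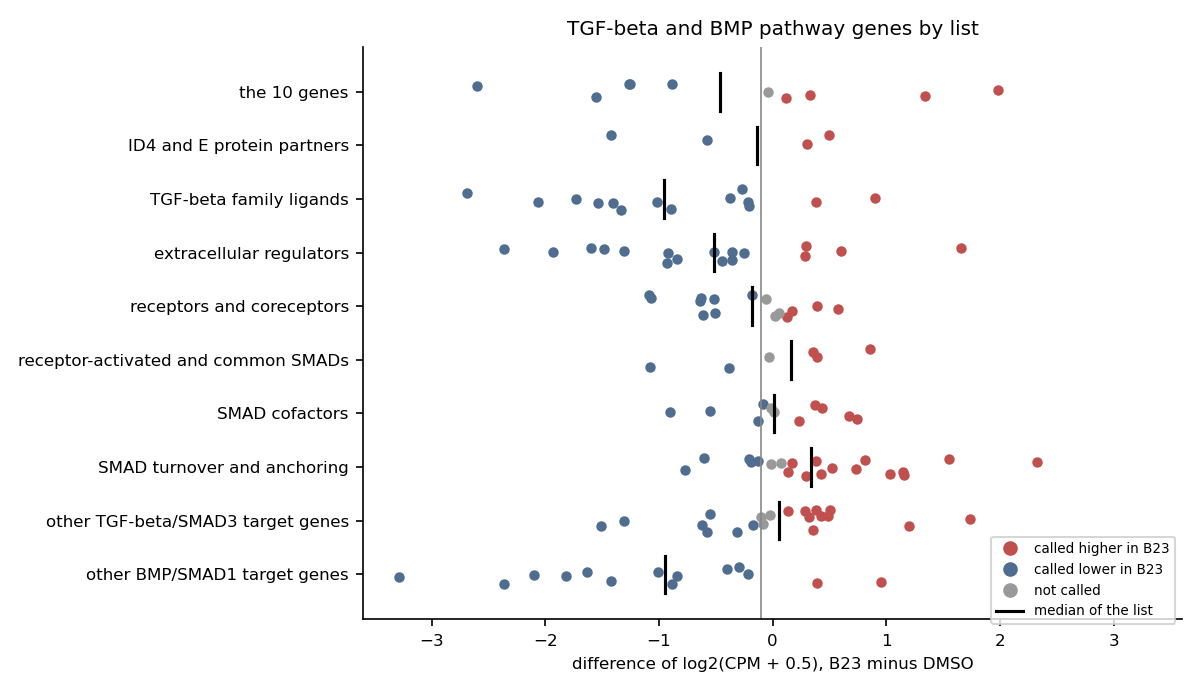
Difference of log2(CPM + 0.5), B23 minus DMSO (horizontal axis), for each tested gene of the 10 genes and of the 9 pathway lists (rows); colours mark limma calls, black bars list medians and the grey line the median of all tested genes (-0.10). The median is -0.96 for ligands, -0.95 for other BMP/SMAD1 targets and 0.34 for SMAD turnover and anchoring. With a mean of at least 5 CPM these are -0.58, -0.40 and 0.34, so the first 2 rest in part on low genes. With listed-gene total scaling they are -1.20, -1.17 and 0.086. The median of all tested genes is -0.34 with that scaling and -0.006 with a mean of at least 5 CPM.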

How the data were processed

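The deposited table gives CPM per gene symbol, 1 column per library, per the labels. STAR 2.6.1d, SAMtools, HTSeq, edgeR and hg38 are named in the submitters' processing notes, without order or settings. No source used here gives the annotation or the strand setting. Whole reads were recovered, since dividing each column by its smallest step gave whole numbers (100% of values within 0.001 reads). Listed genes summed to 890367 to 900113 CPM in B23 and 745216 to 753745 CPM in DMSO. The divisors behind the CPM lay 0.0288 to 0.459 from a whole number and were equal across genes to within 3.1e-07, so they are not plain read totals; what they include is not stated.

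The contrast of B23 against DMSO was fitted with limma 3.58.1 (R 4.3.3) on log2(CPM + 0.5) with trend and robust empirical Bayes. The 14792 genes averaging 1 CPM or more were tested (704 were left out), with two-sided p-values adjusted over all of them; this scale understates changes of low genes. Folds are ratios of mean CPM. On recovered reads, DESeq2 1.42.0 and the quasi-likelihood test of edgeR 4.0.16 were alternatives, as were other scalings, filters, pseudocounts, a replicate block and each library left out. The fit was tested on simulated data in which few genes changed. That setting is unlike these libraries, where most genes were called, so the simulation does not speak to them. Positions, exons and overlaps come from GENCODE release 29, which matched all 15496 symbols, and promoter windows from RefSeq. The principal transcript is the longest one with GENCODE's APPRIS principal tag. Genes named beside the 10 are, per list, up to 3 called genes with the largest difference, 5 CPM or more on average and groups that do not overlap, with genes that overlap them; neighbours were taken by position. Members and lists were chosen with earlier results of these data known. Planned protein sequences were not used here.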

Additional observations from a re-analysis of the deposited data

How the results depend on the processing

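ID1, ID2, ID3, SMAD6, BAMBI and PMEPA1 kept their direction and their call under all 19 alternatives, and TGFBI under the 18 that tested it, since its mean is under 5 CPM. With the listed genes scaled to the same total, SMAD7 turned to -0.13 (adjusted p = 0.00318), SKIL was at 0.074 (adjusted p = 0.102), SKI was called at -0.29 (adjusted p = 1.25e-07) and 2 rather than 4 of the genes rose. This scaling moved the median of all genes by -0.24, and 67.5% of changed genes were then lower, against 55.3% as deposited. It divides each library by 1 constant and so moves all genes nearly alike. Differences relative to the median of all genes therefore had to be close under both scalings, which is no check of these genes. They were 0.21 and 0.22 for SMAD7, 0.42 and 0.43 for SKIL and 0.048 and 0.060 for SKI. Median-of-ratios scaling moved the median by 0.11. With quantile normalization SMAD7 was at 0.035 (adjusted p = 0.409) and SKI at -0.40 (adjusted p = 4.58e-09); the cause was not tested. SMAD7 (0.12, adjusted p = 0.0108) misses a threshold of 0.01. Leaving out 1 library gave SMAD7 0.095 to 0.15. Same-numbered libraries did not deviate together (correlations of -0.070 to 0.026, against -0.079 to 0.157 for libraries of unlike number). With a replicate block 13106 genes were called, against 13111, with 4 of the 10 genes higher and 5 lower. All 475 values of the 25 named list genes, and 319 of 342 list counts, stayed on their side or within 1.5 times. The named genes were picked as called genes with large differences in these data, so their staying was nearly fixed in advance. The filters, the fit without trend, the replicate block and the threshold of 0.01 also leave each log2 difference unchanged, so they check only calls. Depth limits TGFBI most, with 28 to 43 reads in DMSO.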
